A study of Mus musculus with 4 samples.

Results

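Annotated nonsense-mediated decay isoforms were followed in mouse neural stem cells, whose amplified cDNA was sequenced as long reads on a Nanopore sequencer. They were chosen as the isoforms counted under a plain Ensembl transcript identifier, paired with an Ensembl gene, whose transcript type in GENCODE M21 (build GRCm38) is nonsense-mediated decay. The choice used the annotation and no measured value. It gave 595 isoforms of 509 genes among the 46637 isoforms that named a gene (1.28%), and 8.28% of the 7186 transcripts of that type in the annotation. Neural stem cells were primary cultures from the dorsal pallium of mid-gestation embryos, grown with bFGF and EGF. All were floxed, which means that loxP sites flank exons of the named gene in both copies, and all were exposed to lipid nanoparticles (LNP) for 3 days. The control library, Tut1f/f, received LNP without Cre mRNA. The others, labelled Tut1f/f;Cre, then Trp53f/f;Cre, then Tut1f/f;Trp53f/f;Cre, received LNP carrying mRNA of the Cre recombinase, which removes the floxed exons. There was 1 library per group and no control with both empty LNP and Trp53f/f, so Cre mRNA and deletion cannot be told apart in a comparison with Tut1f/f. No difference between a pair of libraries has a replicate check, and whether Tut1f/f and Tut1f/f;Cre came from separate embryos is not stated. Intervals count reads as independent, which amplified copies are not, and so hold no more than counting error.

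Nonsense-mediated decay is a surveillance pathway that removes mRNAs on which translation ends too early. During splicing an exon junction complex is placed just upstream of each junction, and a ribosome that stops well before the last junction leaves such a complex on the mRNA, where it helps the helicase UPF1 to start decay. Alternative splicing can place a stop codon early by a shifted reading frame or by an exon that carries a stop codon, often called a poison exon. Many splicing factors, among them SR proteins and hnRNPs, limit their own level by making such isoforms. The enzyme made by Tut1 adds uridines to the end of U6, a small nuclear RNA on which splicing depends, and the study sequenced these cells to ask how its loss affects mRNA splicing. An isoform of this type that is counted here is one that was present at steady state. Its rate of decay was not measured.

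The libraries held between 3936827 and 5125888 reads, of which 2863392 to 4244467 named a gene. Reads of Tut1 over the whole gene numbered 37 in Tut1f/f, 11 under the label Tut1f/f;Cre, 14 under the label Trp53f/f;Cre, where Tut1 is labelled intact, and 27 under the label Tut1f/f;Trp53f/f;Cre, where it is labelled deleted. Cre removes a single exon of Tut1, the table gives no reads per exon, and reads of the whole gene therefore do not check the deletion, which the study measured on that exon. Trp53 had 175, 67, 10 and 19 reads in the same order, lowest in the libraries labelled as Trp53-deleted. The female-specific Xist had 0, 44, 49 and 0 reads and the Y-linked Eif2s3y 155, 0, 0 and 60, so sex-linked genes split the libraries across the labels. Genes of neural stem cells were abundant (9 of 10 listed markers with reads, summed level 11590 to 13389 CPM), while 8 neuronal markers summed to 71.2 to 88.5 CPM and those of microglia, endothelium and fibroblasts to at most 0.861 CPM. Markers of astrocytes (5 genes, with Gfap and Aqp4 at or near 0) summed to 215 to 385 CPM and those of the oligodendrocyte lineage (7 genes) to 385 to 732 CPM. CPM is reads per 1000000 gene reads after TMM scaling. Genes of type rRNA, mostly CT010467.1, took 18.7% of gene reads in the control and 9.76%, 8.91% and 5.46% in the Cre libraries.

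In the annotation these isoforms shared an early stop. The stop codon lay at least 50 nt before the last exon junction in 592 of 595, which follows from how the type is annotated. The median distance was 307 nt and the range 20 to 6182 nt. The open reading frame had a median of 79 codons, 30.3% of the longest protein of the same gene. TGA ended 335 of them (56.3%), TAA 130 and TAG 130. In 358 isoforms, which held 64.0% of the reads, the stop codon lay within an exon that protein-coding transcripts also use. It lay in an exon absent from protein-coding transcripts in 100 isoforms, in an extended or retained stretch of an exon in 92, and at a stop codon shared with a protein-coding transcript in 43. The last kind ends where some protein-coding transcript of the gene ends its frame, not necessarily the longest, and has a junction after it.

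**Figure D1:**
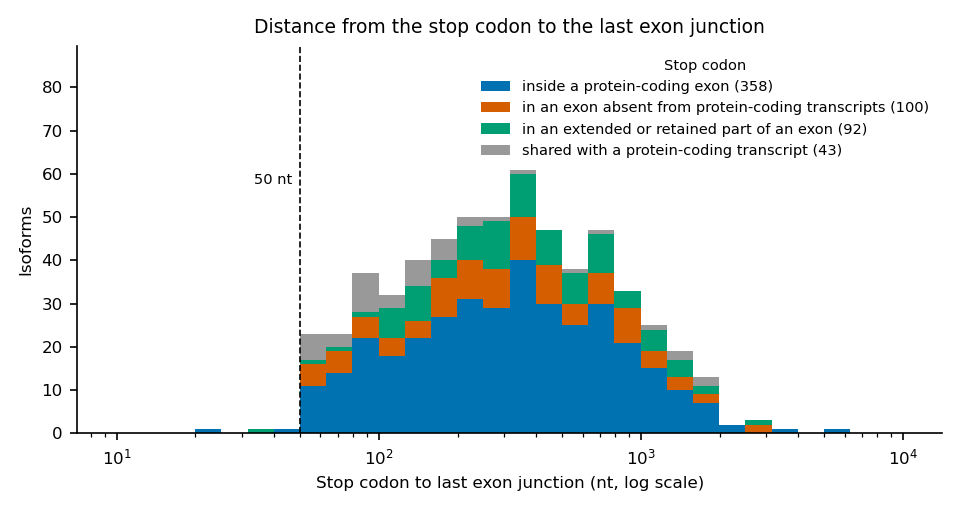
Distance from the stop codon to the last exon junction (nt, log scale) for the annotated isoforms, stacked by where the stop codon lies; the dashed line marks 50 nt. The 358 isoforms with a stop codon inside a protein-coding exon spread over the same range as the 100 with a stop codon in an added exon, and the 43 with a shared stop codon lie mostly at short distances, with a median of 126 nt.

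Against the protein-coding transcript with the longest frame of the same gene, 196 of 593 isoforms (33.1%) left out at least 1 exon, 141 (23.8%) held an added exon, 288 (48.6%) had a junction with a moved splice site and 40 (6.75%) kept an intron. A total of 460 (77.6%) were shorter than that transcript. Some differences were too small for a long read to resolve with ease: the closest protein-coding transcript differed by 10 nt or fewer, within the span both cover, for 81 isoforms (13.7%), which held 12.7% of the reads. The median difference was 79 nt.

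The ends of 10 reading frames are printed to show how the early stops arise in the isoforms to which the results below refer. Each line gives the last 19 codons, 5′ to 3′ on the strand of the gene, with the stop codon in capitals. Exon positions are on GRCm38. The first 5 end in an exon that no protein-coding transcript of the gene uses. In Srsf3 (chr17:29039454-29039909, + strand) 34 of the 60 printed bases lie in the 456-nt poison exon, and in Snrpb (chr2:130176629-130176752, - strand) 58 lie in a 124-nt exon. In Ankrd10 (chr8:11620262-11620373, - strand) 49 lie in a 112-nt exon, in Dnajc5 (chr2:181548926-181549000, + strand) 11 and in Rbmx (chrX:57385133-57385221, - strand) 5.
Srsf3 ENSMUST00000037776: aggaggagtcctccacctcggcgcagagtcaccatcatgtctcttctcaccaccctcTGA
Snrpb ENSMUST00000147570: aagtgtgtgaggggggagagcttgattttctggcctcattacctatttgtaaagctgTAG
Ankrd10 ENSMUST00000210530: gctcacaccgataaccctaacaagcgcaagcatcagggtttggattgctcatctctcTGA
Dnajc5 ENSMUST00000116365: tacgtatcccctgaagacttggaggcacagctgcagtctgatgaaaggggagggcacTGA
Rbmx ENSMUST00000140384: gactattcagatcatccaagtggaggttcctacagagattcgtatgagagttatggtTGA

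The next 4 end in an exon that protein-coding transcripts share, and the last ends at the stop codon of a protein-coding transcript. Yeats4 (stop in chr10:117220333-117220455, - strand) holds 28 nt more of an exon than its protein-coding transcript and ends after 95 of 227 codons. Slc35b1 (chr11:95387770-95387927, + strand) lacks 25 nt of an upstream exon and ends after 156 of 322 codons. Rrp1 (chr10:78409134-78409219, - strand) lacks 83 nt, 1 exon, and ends after 82 of 494 codons. Ndufs4 (chr13:114316857-114317029, - strand) lacks an exon of 79 nt and ends after 37 of 175 codons. Hnrnpa1 (chr15:103243959-103244028, + strand) reads 320 codons to a stop codon that a protein-coding transcript shares, and then has 2 further junctions.
Yeats4 ENSMUST00000218887: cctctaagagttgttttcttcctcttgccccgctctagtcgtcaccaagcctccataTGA
Slc35b1 ENSMUST00000131193: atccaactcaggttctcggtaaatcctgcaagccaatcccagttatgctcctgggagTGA
Rrp1 ENSMUST00000219374: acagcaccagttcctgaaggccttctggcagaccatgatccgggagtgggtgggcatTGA
Ndufs4 ENSMUST00000225035: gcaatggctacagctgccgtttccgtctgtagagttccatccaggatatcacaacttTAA
Hnrnpa1 ENSMUST00000230171: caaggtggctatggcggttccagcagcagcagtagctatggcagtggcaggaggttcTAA

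The first question was whether decay isoforms as a class took a larger share of the reads after Cre mRNA. They took 0.280% of gene reads in Tut1f/f (95% Wilson interval 0.275% to 0.285%), 0.307% (0.300% to 0.313%) in Tut1f/f;Cre, 0.307% (0.301% to 0.313%) in Trp53f/f;Cre and 0.326% (0.319% to 0.332%) in Tut1f/f;Trp53f/f;Cre. The control was lowest and its interval met none of the others. The ribosomal RNA gene moved in the opposite direction, and with that gene left out of the total the shares were 0.344%, 0.340%, 0.337% and 0.345%. Their intervals (0.338% to 0.350%, 0.333% to 0.347%, 0.331% to 0.343% and 0.338% to 0.352%) then overlapped between every pair of libraries. As a share of the reads of the 509 genes alone they were 3.07%, 2.99%, 3.01% and 2.94%. There the control (3.02% to 3.13%) lay above Tut1f/f;Trp53f/f;Cre (2.88% to 3.00%) with no overlap, the reverse of the share of all gene reads. No test was run on 1 library per group, and an exact permutation over 2 against 2 libraries cannot go below p = 0.333.

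Isoforms annotated as retained introns did not keep the same level. With the ribosomal RNA gene left out they took 1.14% of gene reads in the control and 1.71%, 1.59% and 1.60% in the Cre libraries, whose intervals lay far above that of the control. Protein-coding isoforms took 68.5% in the control and 63.6%, 63.9% and 65.3%. Decay isoforms with more than 10 differing nt took 0.300%, 0.297%, 0.292% and 0.303%. The even share without the ribosomal RNA gene thus did not rest on isoforms that differ little from a protein-coding transcript. The 28 genes analysed of a list of nonsense-mediated decay and exon junction factors, none of which had a decay isoform in the table, summed to 1770, 1895, 1805 and 1995 CPM. Upf1 was also listed but had no entry among the counted genes, so it is not in the sum.

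**Figure D2:**
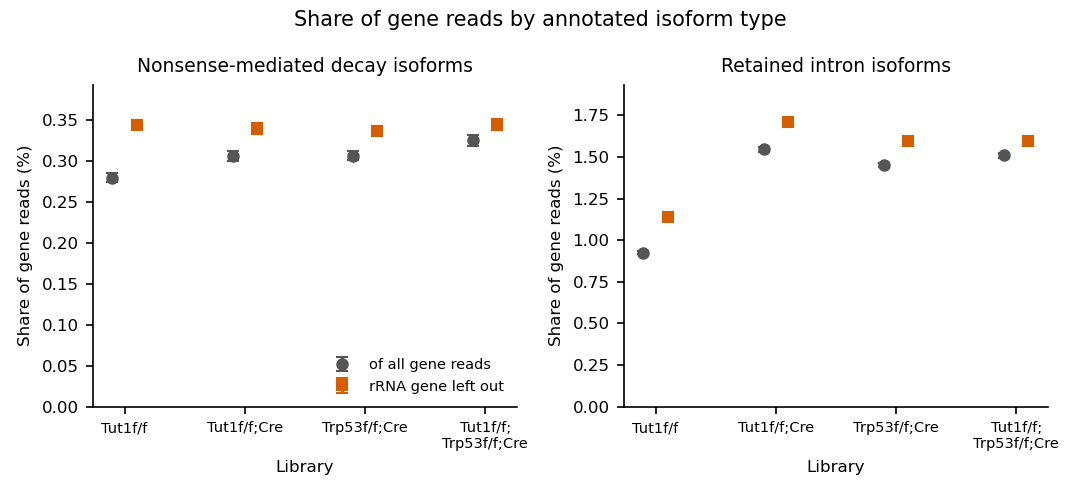
Share of gene reads (%) held by nonsense-mediated decay isoforms (left) and retained intron isoforms (right) in each library; points are single libraries, circles over all gene reads and squares with the rRNA gene left out, with 95% Wilson intervals. With the rRNA gene left out the decay isoforms lie between 0.337% and 0.345% in all 4 libraries, while retained introns lie at 1.14% in the control and at 1.59% to 1.71% in the Cre libraries.

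Reads of the class were concentrated. Of 40845 reads over the 4 libraries the 10 most abundant isoforms held 30.7% and the top 50 held 64.2%. The median isoform had 16 reads in all, 389 were detected in all 4 libraries and 25 in none, and 3 reads, the limit that a count of 0 allows, correspond to between 0.754 and 1.02 CPM. Genes of ribosomal proteins were among them. Rpl12 ENSMUST00000102811 made up 14.4%, 15%, 14.8% and 15.4% of the gene's reads in the order Tut1f/f, then Tut1f/f;Cre, then Trp53f/f;Cre, then Tut1f/f;Trp53f/f;Cre, which holds for all values below. It had 310 to 492 reads in each library and varied by less than 3 percentage points. Rpl13a ENSMUST00000210967 was at 8%, 6.64%, 7.80% and 6.87%. The respiratory chain subunit genes Ndufa7 (8.76% to 11.7%) and Ndufb8 (11.5% to 13.5%) and the peptidyl-prolyl isomerase gene Ppia (0.763% to 0.889%) were among the 15 most abundant as well. The Ppia and Rpl36a isoforms differ by 5 nt and 1 nt from the closest protein-coding transcript.

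Usage, the isoform's percentage of the reads of its gene, was low for most. Among 505 isoforms of genes with at least 20 reads in each library the median usage was 2.75%, 2.55%, 2.54% and 2.50%, and 375 (74.3%) stayed under 10% in all 4 libraries. Usage reached 50% in all 4 libraries for 5. In Flna, which encodes the actin cross-linker filamin A, ENSMUST00000144429 held 161 of 162, 160 of 161, 208 of 208 and 122 of 122 reads. This isoform has 47 exons, its frame stops after 510 of 2647 codons, and it differs from the closest protein-coding transcript by 2 nt at 1 splice site. Acap2 ENSMUST00000230698 (an Arf GTPase-activating protein gene) held 98.4%, 93.9%, 93.7% and 96.6% and differs by 14 nt, and Supt20 ENSMUST00000200439, a gene of a SAGA complex subunit, differs by 3 nt. The zinc finger gene Zfp938 held 87.2%, 93.2%, 94.1% and 96.7% on ENSMUST00000156218, with 86 nt of added exon, and Ankrd10 was the fifth. How the table separated isoforms that differ by a few bases is not given in the sources used here.

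The main comparison asked which isoforms differed in usage between a pair of libraries, by a two-sided Fisher's exact test of reads with Benjamini-Hochberg adjustment over all isoforms tested (FDR under 0.05 and at least 10 percentage points). The test compares libraries, not conditions. Against Tut1f/f, 9 of 260 decay isoforms were called in Tut1f/f;Cre (7 higher, 2 lower), 3.46% against a background of 8.66% over all isoforms (4.16% higher, 4.51% lower). In Trp53f/f;Cre 13 of 261 were called (9 higher, 4 lower), 4.98% against a background of 9.12% (4.57% higher, 4.55% lower). In Tut1f/f;Trp53f/f;Cre 6 of 264 were called (2 higher, 4 lower), 2.27% against a background of 6.49% (3.05% higher, 3.44% lower). In each comparison with the control the share of decay isoforms called was thus below the background, where retained introns had 16.3%, 16.6% and 13.3% called. These 3 comparisons share the control library. Low usage leaves less room for a 10-point difference: 58.1% of the decay isoforms tested in the first comparison lay under 10% usage in both libraries, against 38.6% of all isoforms tested. Without the 10-point minimum 27, 26 and 22 were called (10.4%, 9.96% and 8.33%), against backgrounds of 14.1%, 15% and 10.9%.

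Between libraries that both received Cre mRNA calls were few. Tut1f/f;Trp53f/f;Cre differed from Trp53f/f;Cre, the comparison in which the labels differ by Tut1 alone, in 4 of 228 decay isoforms (2 higher, 2 lower), 1.75% against a background of 1.24% (0.541% higher, 0.7% lower). Without the 10-point minimum 7 were called, 3.07% against a background of 2.49%. Against Tut1f/f;Cre it differed in 0 of 231, with a background of 0.15% (0.0865% higher, 0.0634% lower). At an unadjusted exact-test p under 0.05 there were 17 (7.36%, beside 8.03% over all isoforms). Tut1f/f;Cre differed from Trp53f/f;Cre in 0 of 221, with a background of 0.222% (0.111% in each direction). Here 17 had an unadjusted exact-test p under 0.05 (7.69%, beside 8.21% over all isoforms). Without the minimum the calls in these comparisons became 0 and 2, with backgrounds of 0.34% and 0.619%. Of the 20 isoforms called in any comparison, each of a different gene, 19 were called with the control on 1 side. The median usage difference of decay isoforms lay between -0.11 and 0.03 percentage points in the 6 comparisons.

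**Figure D3:**
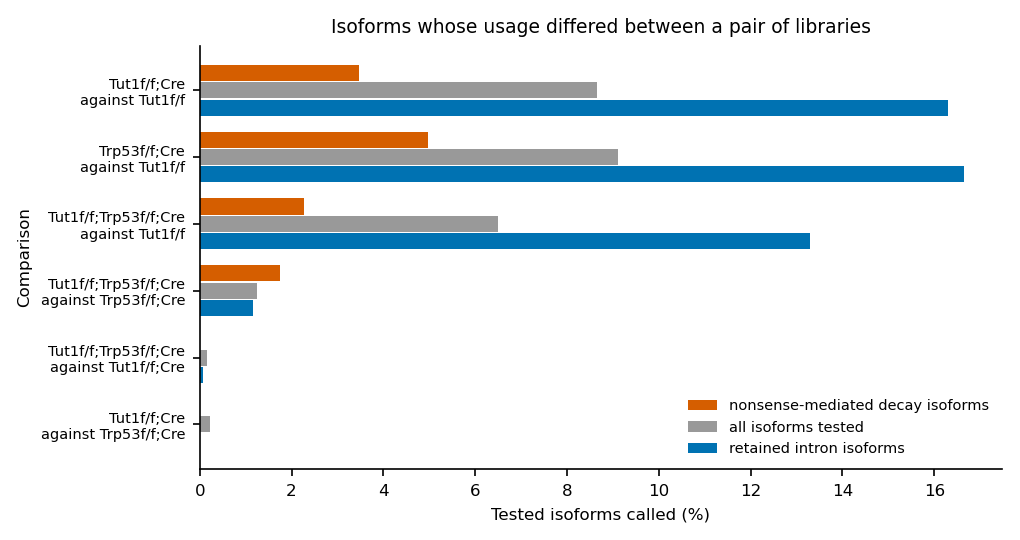
Percentage of tested isoforms called different in usage (Fisher's exact test on reads, FDR under 0.05 and at least 10 percentage points) in the 6 comparisons between pairs of libraries, for nonsense-mediated decay isoforms, all isoforms and retained introns. In the 3 comparisons with Tut1f/f the decay isoforms reach 2.27% to 4.98%, below all isoforms (6.49% to 9.12%) and retained introns (13.3% to 16.6%).

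Yeats4, which encodes a chromatin reader of histone acylation, had the smallest FDR among decay isoforms in each comparison with the control. ENSMUST00000218887 held 167 of 389 reads in the control and 177 of 217, 216 of 269 and 134 of 165 in the Cre libraries. Usage was thus 42.9% (38.1% to 47.9%) in Tut1f/f and 81.6% (75.9% to 86.2%), 80.3% (75.1% to 84.6%) and 81.2% (74.6% to 86.4%) in the others, which overlapped one another and lay far above the control. The differences of 38.6, 37.4 and 38.3 percentage points had exact-test FDRs of 1.51e-18, 6.48e-20 and 8.11e-15. The isoform's own level was 42.0, 58.4, 62.0 and 45.4 CPM, whereas the other isoforms of the gene went from 55.8 CPM to 13.2, 15.2 and 10.5 CPM. The protein-coding ENSMUST00000020382 had 220, 39, 52 and 25 reads. The exact interval of the decay isoform's own log2 ratio to the control lay above 0 in Tut1f/f;Cre (0.48) and Trp53f/f;Cre (0.56) and included 0 in Tut1f/f;Trp53f/f;Cre (0.11), beside -2.08, -1.88 and -2.41 for the other isoforms.

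Rbmx, the gene of an RNA-binding protein of the hnRNP G type, moved in the same direction. ENSMUST00000140384 had a usage of 34.9%, 53.2%, 56.0% and 45.3%, and it was called in Tut1f/f;Cre (18.3 points, exact-test FDR 4.82e-04) and in Trp53f/f;Cre (21.1 points, FDR 2.64e-05). Its level was even at 33.7, 35.3, 33.3 and 27.8 CPM, and the other isoforms had 62.9, 31, 26.1 and 33.6 CPM. The difference depended on the other isoforms counted. With only annotated transcripts in the denominator it was 9.74 and 9.35 points. That denominator leaves out, among others, a Rbmx isoform named by a read, not by Ensembl, with 148, 36, 26 and 52 reads.

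Ankrd10, which encodes an ankyrin repeat protein, had a poison exon isoform as its main form. ENSMUST00000210530 had a usage of 63.4% (54.2% to 71.7%), 89.0% (82.1% to 93.4%), 85.2% (78.2% to 90.2%) and 68.5% (58.4% to 77.1%). Tut1f/f and Tut1f/f;Trp53f/f;Cre overlapped, and the other pair lay above both. Exact-test FDRs against the control were 1.30e-04 and 0.00161. Its level rose from 17.9 CPM to 34.7 and 33.0 CPM in Tut1f/f;Cre and Trp53f/f;Cre and was 21.4 CPM in Tut1f/f;Trp53f/f;Cre.

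Among isoforms called in a comparison, Rbmx above and 4 more named ones were likewise higher in usage in Tut1f/f;Cre and in Trp53f/f;Cre than in both Tut1f/f and Tut1f/f;Trp53f/f;Cre. So were 3 isoforms outside the rule for naming, added after their values were seen, in Dus2 (38.2%, 44.2%, 65.9% and 35.4%), Ncstn (4.83%, 10.9%, 19% and 8.05%) and Jpt2 (0.813%, 25.7%, 22.2% and 10.3%). Rrp1 and Cfl2 were called against the control in Tut1f/f;Cre and in Trp53f/f;Cre, Laptm4b and Mettl3 in Trp53f/f;Cre alone, and none of these 4 named isoforms in Tut1f/f;Trp53f/f;Cre. These isoforms were grouped by their values, and the share of all isoforms with that pattern was not computed. Against Tut1f/f;Trp53f/f;Cre itself Rrp1 and Laptm4b were called in Trp53f/f;Cre, and none of the group was called in Tut1f/f;Cre, where exact-test FDRs were 0.0804 for Ankrd10, 0.212 for Rrp1 and higher for the others tested. Rrp1, a gene of ribosomal RNA processing, was at 18.3%, 29.8%, 39.1% and 15.6% (ENSMUST00000219374). Laptm4b, a lysosomal membrane protein gene, was at 9.88%, 19.7%, 34.6% and 16.6% (ENSMUST00000226437). The cofilin gene Cfl2 was at 10.4%, 20.6%, 22.9% and 12.5%, and Mettl3, the gene of the m6A methyltransferase, at 13.6%, 21.9%, 27.3% and 17.1%. The highest value in each of these 4 was in Trp53f/f;Cre. Tut1f/f;Cre and Trp53f/f;Cre are the libraries in which Xist was read and Eif2s3y was not, and in which Tut1 reads were lowest. The 7 markers of the oligodendrocyte lineage summed to 385, 642, 732 and 525 CPM, also highest in that pair. Their median log2 ratio to the control was 0.38, 0.19 and 0.21 in the Cre libraries, which is not that order. The 5 astrocyte markers summed to 385, 241, 215 and 319 CPM, lowest in that pair. The part of any of these in the differences was not tested. In Hnrnpa2b1, whose protein binds RNA and sorts it in neurons, ENSMUST00000203954 followed the same order at a low level (1.74%, 3.56%, 5.41% and 1.85%), below the 10-point minimum but with an exact-test FDR of 5.67e-12 in Trp53f/f;Cre against Tut1f/f.

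**Figure D4:**
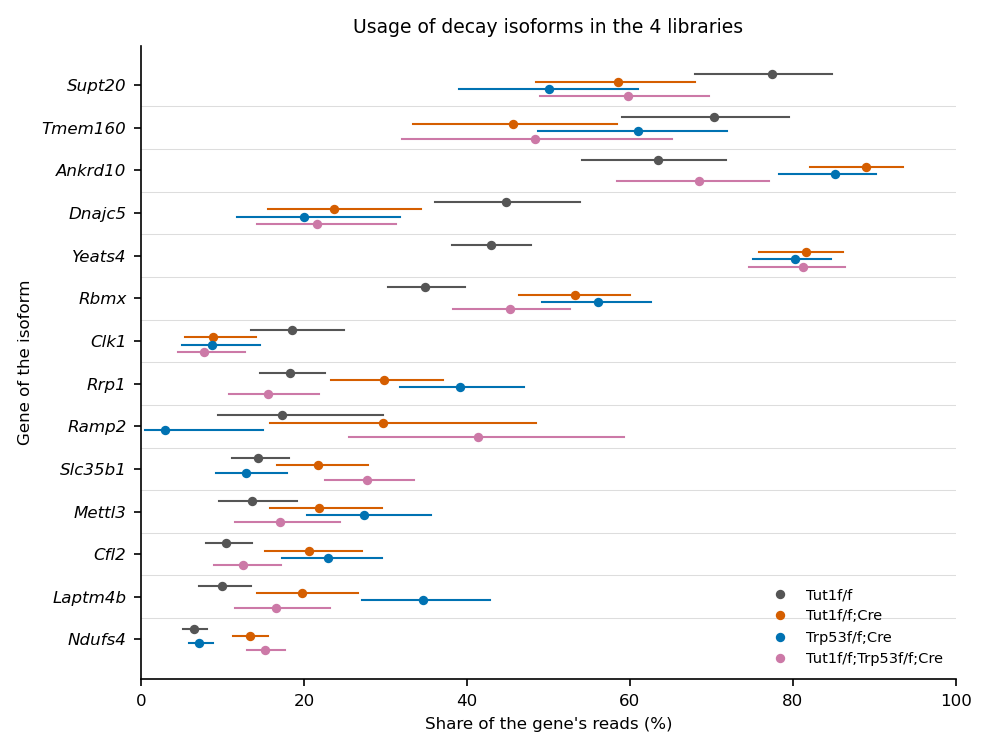
Usage (percentage of the gene's reads) of 14 decay isoforms in the 4 libraries, sorted by usage in Tut1f/f; points are single libraries and lines 95% Wilson intervals. Yeats4 lies at 42.9% in the control and above 80% in all Cre libraries, and Ndufs4 lies at 13.3% and 15.2% in the libraries labelled as Tut1-deleted and at 6.46% and 7.16% in the others.

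Calls of lower usage against the control numbered 10, over 7 isoforms. Dnajc5, which encodes the synaptic co-chaperone cysteine string protein, had a usage of 44.8%, 23.7%, 20% and 21.6% for ENSMUST00000116365, whose stop codon lies in an added exon. The 3 Cre libraries overlapped and lay below the control, with differences of -21.1, -24.8 and -23.2 points and exact-test FDRs of 0.0296, 0.0148 and 0.00968. Here the isoform's own level fell, from 13.1 to 5.94, 3.44 and 6.44 CPM. Clk1, a kinase that phosphorylates SR proteins, had a usage of 18.5%, 8.88%, 8.70% and 7.69% for ENSMUST00000148330, which leaves out an exon of 91 nt, and was called in Tut1f/f;Trp53f/f;Cre only (exact-test FDR 0.0399). Supt20 was at 77.4%, 58.5%, 50% and 59.8%, called in Trp53f/f;Cre (FDR 0.00409, exact test), and Tmem160, a gene of a transmembrane protein, at 70.3%, 45.6%, 60.9% and 48.4%, called in Tut1f/f;Cre (FDR 0.0488, exact test). Tmem160 rested on 74, 57, 64 and 31 gene reads. Hyi, which the rule for named isoforms left out and which was added after its values were seen, had the difference furthest below 0 among these calls, -41.8 points in Trp53f/f;Cre (exact-test FDR 0.00399) and -38.6 points in Tut1f/f;Trp53f/f;Cre (exact-test FDR 0.0387). Its isoform ENSMUST00000106393 had 18 of 37, 0 of 16, 2 of 29 and 2 of 20 reads.

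After TMM scaling each call of higher usage against the control went with a lower level of the gene's other isoforms. Against the control there were 18 such calls over 12 isoforms, and the level of the gene's other isoforms lay below the control in all 18, with a 95% interval that left out no change. Over all isoforms this held for 60.2% of the calls of higher usage. The decay isoform's own level lay above the control in 7 of the 18, against 70.2% of the calls over all isoforms, and below it in 0. The median log2 ratio was 0.41 for the decay isoform and -1.28 for the other isoforms of its gene. Among 10 calls of lower usage the decay isoform's own level lay below the control in 8, with a background of 67.9%. Levels depend on the scaling: without TMM every log2 ratio against the control rises by 0.12 to 0.14, and the other isoforms lay below the control in 17 of the 18. The calls were chosen on these same reads, and higher usage needs the isoform to rise or the others to fall. An isoform called in several comparisons enters once for each, all calls share the control, and no test was made of these counts.

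**Figure D5:**
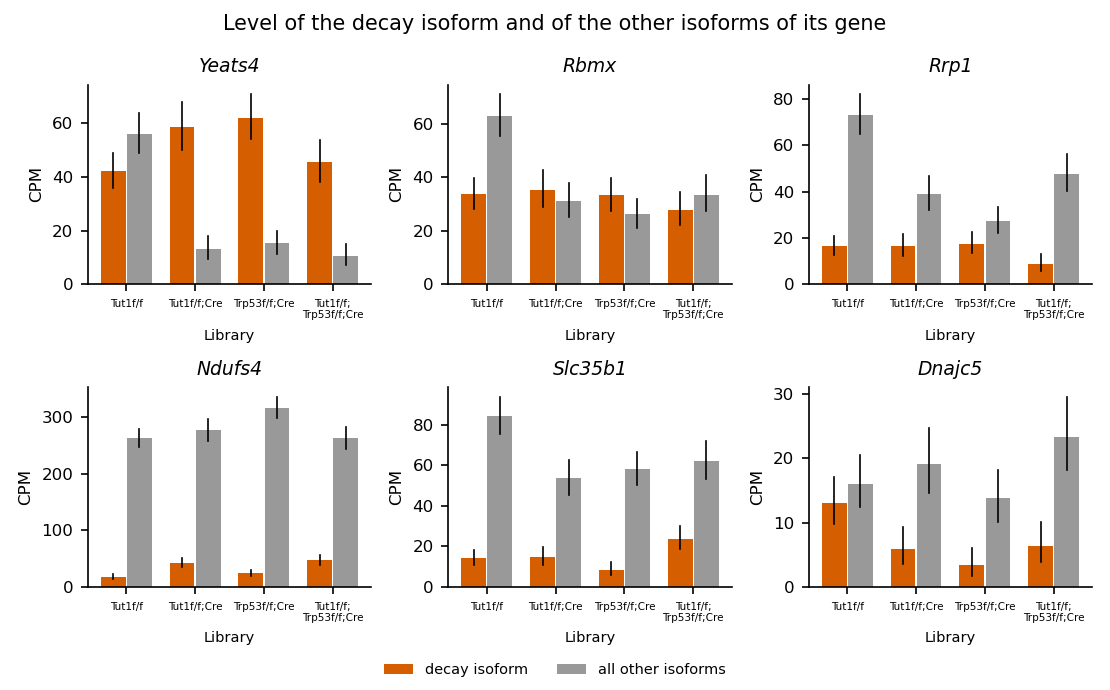
Level (CPM, TMM-scaled) of the decay isoform and of all other isoforms of its gene in each library for 6 genes; bars are single libraries and lines exact 95% Poisson intervals. In Yeats4 the other isoforms go from 55.8 CPM to 10.5 to 15.2 CPM while the decay isoform lies between 42.0 and 62.0 CPM; in Ndufs4 the decay isoform lies at 42.6 and 47.1 CPM in the libraries labelled as Tut1-deleted and at 18.1 and 24.4 CPM in the others.

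Isoforms that follow the Tut1 labels were sought over the 4 comparisons between a library labelled Tut1-deleted and one labelled Tut1-intact. Ndufs4, which encodes a subunit of respiratory complex I, was the only decay isoform with an FDR under 0.05 and the same direction in all 4, among 193 tested in all of them. Over all isoforms 33 of 14619 did so, a background of 0.226%. ENSMUST00000225035 held 72 of 1115, 129 of 967, 85 of 1187 and 139 of 913 reads, a usage of 6.46% (5.16% to 8.05%), 13.3% (11.3% to 15.6%), 7.16% (5.83% to 8.77%) and 15.2% (13.0% to 17.7%). Both libraries labelled as Tut1-deleted lay above both of the others, with no overlap of intervals. Differences were 6.88 points in Tut1f/f;Cre against Tut1f/f (exact-test FDR 6.10e-06) and 8.06 points in Tut1f/f;Trp53f/f;Cre against Trp53f/f;Cre (FDR 2.04e-06, exact test), under the 10-point minimum. The other isoforms of the gene were even at 262, 277, 316 and 262 CPM. Ndufs4 was not called at 10 points, as the rule for named isoforms asks, and was picked after its values were seen. The choice used the labels, so its order is no check of them.

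Slc35b1, a nucleotide sugar transporter gene of the endoplasmic reticulum, was also higher in both libraries labelled as Tut1-deleted, with less depth. ENSMUST00000131193 had 56 of 391, 45 of 207, 30 of 232 and 70 of 253 reads, or 14.3% (11.2% to 18.1%), 21.7% (16.7% to 27.8%), 12.9% (9.21% to 17.9%) and 27.7% (22.5% to 33.5%). Tut1f/f;Trp53f/f;Cre lay above the control by 13.3 points (exact-test FDR 0.00111) and above Trp53f/f;Cre by 14.7 points (exact-test FDR 0.00696). Tut1f/f;Cre overlapped the control and was not called. Ramp2, the gene of a receptor activity-modifying protein, had 9 of 52, 8 of 27, 1 of 34 and 12 of 29 reads, and its difference of 38.4 points between Tut1f/f;Trp53f/f;Cre and Trp53f/f;Cre (exact-test FDR 0.0179) rests on those counts. Rrp1 and Laptm4b were the other calls in that comparison, lower by 23.5 points (exact-test FDR 5.25e-04) and 18 points (FDR 0.0250, exact test).

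Splicing regulators were read from lists of genes. Of 27 genes of SR proteins and SR-like regulators 9 had a decay isoform, 11 in all, of which 5, 6 and 5 had enough reads for the 3 tests against the control. Clk1 was the only call, 1 of 5 in Tut1f/f;Trp53f/f;Cre, beside 6.49% over all isoforms, and the other comparisons called 0 of 5 and 0 of 6, beside 8.66% and 9.12%. The poison exon isoform of Srsf3, ENSMUST00000037776, had 87, 25, 25 and 31 reads, a usage of 5.24%, 3.25%, 3.01% and 2.92%, and the difference from the control of -2.32 points in Tut1f/f;Trp53f/f;Cre had an exact-test FDR of 0.0376, below the 10-point minimum. Together the 11 isoforms held 4.82%, 4.40%, 3.91% and 4.82% of the reads of their genes, with overlapping intervals. Over the 5, 6 and 5 isoforms tested the median usage difference from the control was -1.47, -1.80 and -1.22 points, beside -0.06, -0.09 and -0.06 points over all isoforms. Luc7l, the gene of a U1 snRNP-associated protein, was even at 10.3%, 9.01%, 8.93% and 9.09%, and Rsrc2 was at 3.18%, 3.00%, 4.33% and 2.63%.

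Of 45 genes on a list of hnRNPs and other RNA-binding proteins, which left out Rbmx described above, 10 had a decay isoform, 17 in all. Of the 7, 8 and 11 tested against the control 0 were called at 10 points by the exact test, beside 8.66%, 9.12% and 6.49% over all isoforms, and their median usage difference was 0.17, 0.59 and 0.67 points. Their joint share of the reads of their genes was 2.94% (2.69% to 3.21%) in the control and 4.63%, 5.1% and 4.09% in the Cre libraries, all above the control. Hnrnpa1, the gene of a repressor of exon inclusion, gave the most of these reads: ENSMUST00000230171 had 277 of 486, 255 of 397, 253 of 452 and 272 of 420. Its usage was 4.67%, 8.78%, 8.48% and 7.95%, with exact-test FDRs of 1.49e-11, 1.87e-10 and 1.92e-08 against the control. Its level was 69.6, 84.2, 72.6 and 92.2 CPM while all other Hnrnpa1 isoforms had 1423, 875, 783 and 1067 CPM. Tardbp, the gene of TDP-43, was at 4.49%, 7.99%, 7.21% and 2.63% and was not called. Snrpb, which encodes a core protein of the Sm ring, had 42 reads on its poison exon isoform in the control and 4, 5 and 13 in the Cre libraries, but the gene had 1648 reads there and 331, 320 and 404 in the others, and usage was 2.55%, 1.21%, 1.56% and 3.22%. A numbered variant of the same Snrpb transcript, not counted as a member, had 61, 15, 7 and 9 reads, or 3.70%, 4.53%, 2.19% and 2.23%.

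Of 57 ribosomal and translation genes 11 had decay isoforms, 15 in all, and these held 2.19%, 1.96%, 2.09% and 2.01% of the reads of their genes. In each comparison with the control 11 were tested and 0 called at 10 points by the exact test, beside 8.66%, 9.12% and 6.49% over all isoforms. Rps18 fell from 2.63% to 2.04%, 1.89% and 1.79%, with exact-test FDRs of 0.0433, 0.00249 and 8.88e-04. Eif4a2, the gene of a translation initiation helicase, was at 5.1%, 4.11%, 3.76% and 2.26% and was not called. A numbered variant of another Eif4a2 decay transcript, not counted as a member, went the other way, at 5.39%, 7.14%, 7.80% and 10.4%. Rpl22l1 was at 1.01%, 1.38%, 1.58% and 1.47%. Of 29 genes analysed from a list of known decay targets 4 had a member. Among them Odc1, the gene of ornithine decarboxylase, had a usage of 33.9%, 34.3%, 30.5% and 38.5% and was not called. Prpf4b and Rit1 are genes whose splicing the study assayed: Prpf4b, a kinase of the spliceosome, was at 11.6%, 10.1%, 8.21% and 11.7% for ENSMUST00000222509, and the plain Rit1 isoform ENSMUST00000172333 had 0 reads in all 4 libraries, which allows up to 3 reads in each. A numbered variant of the same Rit1 transcript, not counted as a member, had 11, 2, 6 and 5 reads, or 10.9%, 3.70%, 9.38% and 10.4% of the gene's reads.

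When libraries with the same status stood in for replicates no decay isoform passed. In edgeR's additive model of Tut1 and Trp53 status, with 1 residual degree of freedom, 0 of 162 decay isoforms were called for Tut1 status by the quasi-likelihood test, with a background of 0%. At an unadjusted p under 0.05 there was 1, with a background of 1.35%. For Trp53 status 0 were called (background 0.00594%), and 0 had an unadjusted p under 0.05 (background 0.985%). DESeq2 called 0 decay isoforms for either status, beside 0 and 2 of 16846 over all isoforms, and 0 had an unadjusted p under 0.05, beside 0.588% and 0.469%. For usage, edgeR's diffSpliceDGE called 0 of 156 by Tut1 status (background 0%), and 0 had an unadjusted p under 0.05 (background 0.365%). Ndufs4 ENSMUST00000225035 had a log2 fold change of 1.03 with a standard error of 0.53 (edgeR unadjusted p = 0.0631, adjusted p = 1) for Tut1 status and an unadjusted p of 0.0660 for usage.

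Counted by abundance instead of usage, at a ratio of 2-fold or more with an exact interval that left out no change, 7 of 177 decay isoforms were higher in Tut1f/f;Cre than in Tut1f/f (3.95%, background 12%) and 21 lower (11.9%, background 17.8%). In Trp53f/f;Cre 9 of 186 were higher (4.84%, background 12%) and 23 lower (12.4%, background 20.1%), and in Tut1f/f;Trp53f/f;Cre 10 of 184 were higher (5.43%, background 11.2%) and 22 lower (12%, background 12.4%). In each comparison with the control both shares lay below their background, though 12% against 12.4% in Tut1f/f;Trp53f/f;Cre was nearly equal. An interval is wider at few reads, depth was not matched to all isoforms, and no test was made of these gaps. Tut1f/f;Trp53f/f;Cre against Trp53f/f;Cre had 4 higher and 4 lower of 154 (2.60% each, backgrounds 6.72% and 2.37%). Against Tut1f/f;Cre it had 1 higher and 1 lower of 144 (backgrounds 3.8% and 2.14%). Tut1f/f;Cre against Trp53f/f;Cre had 3 higher and 2 lower of 147 (backgrounds 2.84% and 1.57%).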

How the data were processed

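The deposited table holds whole-number read counts per isoform and library, not normalized, made by the authors. The study names minimap2 and FLAIR for its pallium libraries. What built and filtered the isoforms of this table is not given in the sources used here. Entries that name no gene (17.2% to 30.2% of reads) were left out. Members and gene lists were chosen with earlier results of these data known. Isoforms were matched to GENCODE M21 on GRCm38, the build (mm10) that the labels name, and sequences came from its transcripts.

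Usage was tested with Fisher's two-sided exact test where an isoform had 10 reads or more over both libraries and its gene 20 or more per library. Counts were fitted across all isoforms with edgeR 4.0.16 (R 4.3.3, TMM, filterByExpr; 1 residual degree of freedom), with DESeq2 1.42.0 as the alternative. Each method was tested on simulated data. Groups are single libraries, so exact p-values measure counting error only. Alternatives changed the denominator, the minimum difference, the filter, the scaling and the model terms.

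Isoforms named are the 15 most abundant, calls at 10 CPM or more with the largest differences, members of the lists with 50 reads or a call, those that moved alike in both Tut1 comparisons with a call in at least 1, and those of genes the study assayed. Ndufs4, and the printing of 19 codons and of frame ends outside poison exons, were chosen after values were seen. The isoforms of 1 gene that meets this rule are not reported here.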

Additional observations from a re-analysis of the deposited data

Results flagged for a closer look

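The decay isoform of Rrp1 (ENSMUST00000219374) moved in opposite directions in the comparisons that differ by the Tut1 label. Its usage was higher by 11.5 percentage points in Tut1f/f;Cre than in Tut1f/f (29.8% against 18.3%) and differed by -23.5 points in Tut1f/f;Trp53f/f;Cre against Trp53f/f;Cre (15.6% against 39.1%). The difference between these effects was not tested, since each rests on 1 library per group. Its own level was 16.3, 16.5, 17.5 and 8.81 CPM in the order Tut1f/f, then Tut1f/f;Cre, then Trp53f/f;Cre, then Tut1f/f;Trp53f/f;Cre.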

How the results depend on the processing

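No paired analysis was possible because each group has 1 library and the groups share only replicate number 1. In the order Tut1f/f, then Tut1f/f;Cre, then Trp53f/f;Cre, then Tut1f/f;Trp53f/f;Cre, the share of gene reads of 0.280%, 0.307%, 0.307% and 0.326% was 0.344%, 0.340%, 0.337% and 0.345% without the rRNA gene, 0.359%, 0.409%, 0.412% and 0.439% of plain transcript reads, 3.07%, 2.99%, 3.01% and 2.94% of the reads of genes with a member, 0.418%, 0.426%, 0.429% and 0.464% with numbered variants, 0.202%, 0.212%, 0.207% and 0.221% without the 10 top isoforms, and 0.257%, 0.274%, 0.274% and 0.299% without isoforms at 50% or more of their gene, the last chosen after seeing the data. The control was thus lowest except where the rRNA gene or genes without a member were left out.

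Without the 10-point minimum, an alternative chosen after seeing the data, calls were 27, 26 and 22 against Tut1f/f in place of 9, 13 and 6, then 7 in place of 4 for Tut1f/f;Trp53f/f;Cre against Trp53f/f;Cre and 2 in place of 0 for Tut1f/f;Cre against Trp53f/f;Cre. With a 20-point minimum Tut1f/f;Trp53f/f;Cre had 3 calls against Tut1f/f (1.14%, beside 3.22% over all isoforms) and 2 against Trp53f/f;Cre (0.877%, beside 0.489%). With plain transcripts as denominator it had 11 calls against Tut1f/f (4.56%, beside 9.97%), and with variants summed Tut1f/f;Cre had 1 against Trp53f/f;Cre (0.328%, beside 0.215%). Of 29 calls of single isoforms retested with the plain denominator, 26 stayed past the threshold, 3 did not (Rbmx in 2 comparisons, Mettl3 in 1) and 0 reversed. Rbmx fell to 9.74 and 9.35 points, while Mettl3 went from 13.7 to 12.9 points in Trp53f/f;Cre against Tut1f/f. The cause was not tested. Leaving out 1 library, with 1 status term, gave 0 to 15 isoforms called for abundance by Tut1 status (15 of 193 without Trp53f/f;Cre), 0 to 9 by Trp53 status (9 of 213 without Tut1f/f;Cre) and 0 to 2 for usage (2 of 185 without Trp53f/f;Cre), where edgeR called 3386 of 19170, 2442 of 20408 and 466 of 13310 over all isoforms. In the 3 fits with calls the control stood alone on 1 side. Depth limits the class, since the median isoform had 16 reads over 4 libraries.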
